A study of Rattus norvegicus with 15 samples.

Results

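The miRNAs described here are miR-192, miR-194, miR-193 and miR-378, which are tied to liver differentiation or metabolism. They were chosen by name: 4 of the 350 miRNAs on the array, and 4 of the 134 that were tested. Each had 2 probes, and both probes of all 4 were detected on all 15 arrays. The tissue was rat liver after chronic feeding of an ethanol diet (EtOH) or pair-feeding of a carbohydrate control diet (CHO), taken before partial hepatectomy (PHx, surgical removal of part of the liver) or 1, 6, 12 and 24 h after it. The groups were EtOH before PHx (3 pools), CHO before PHx (4 pools), and at each time after PHx 1 EtOH pool and 1 CHO pool. Each array held total RNA pooled from 4 animals, so n counts pools. In 7 pools the labels list the same animals before and after PHx, and the 1 h and 6 h pools of each diet share 1 animal. An EtOH array before PHx for the 24 h pool was not analysed here, and the labels give no strain, sex or age.

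A miRNA pairs with messenger RNAs mainly through its seed, the bases near its 5′ end, and lowers their translation or stability. The miR-192 and miR-194 hairpins lie side by side, and hepatocyte nuclear factors are known to drive their transcription in liver and gut epithelium. miR-378 lies inside Ppargc1b, the gene of a coactivator of mitochondrial and lipid metabolism, and both of its strands have been linked to energy balance in mice. The miR-193 family, with its genomic partner miR-365, has been studied in brown fat differentiation in mice and as a brake on growth in tumour cells. Partial hepatectomy makes the remaining hepatocytes re-enter the cell cycle, and chronic ethanol feeding is known to impair this regrowth in rats.

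The mature sequences are shown because the seed, in capitals (bases 2 to 8), sorts the miRNAs into target families. Sequences and positions are RefSeq's on the GRCr8 rat genome. All 4 array names were matched by name, with the unstarred array names taken as miR-192-5p, miR-194-5p, miR-193a-3p and miR-378a-3p.
miR-192-5p: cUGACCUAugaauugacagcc
miR-194-5p: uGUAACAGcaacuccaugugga
miR-193a-3p: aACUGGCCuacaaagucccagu
miR-378a-3p: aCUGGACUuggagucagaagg
The 4 seeds all differ. miR-192-5p shares its seed UGACCUA with miR-215, and miR-193a-3p shares ACUGGCC with miR-193b-3p. These near copies are shown because a probe for one could take up signal of the other.
miR-215: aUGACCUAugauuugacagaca
miR-193b-3p: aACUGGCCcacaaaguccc
Aligned from the 5′ end without gaps, miR-192-5p and miR-215 were identical at 18 of 21 bases, and miR-193a-3p and miR-193b-3p at 18 of 19. miR-215 was on the array and was detected on 0 of 15 arrays. miR-193b was not among the array's named miRNAs, so the miR-193 signal may include it.

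Mature miR-192-5p lies at chr1:212994232-212994252 on the plus strand. The miR-194-5p sequence has 2 sources, Mir194-2 at chr1:212994038-212994059 and Mir194-1 at chr13:99382730-99382751, both on the plus strand. The array cannot tell them apart. The Mir194-2 and Mir192 hairpins are separated by 100 bases and overlap no other listed gene. They are shown to place the neighbours side by side, with the mature strands in capitals.
Mir194-2 hairpin: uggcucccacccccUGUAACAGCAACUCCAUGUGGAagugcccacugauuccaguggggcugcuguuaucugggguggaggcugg
Mir192 hairpin: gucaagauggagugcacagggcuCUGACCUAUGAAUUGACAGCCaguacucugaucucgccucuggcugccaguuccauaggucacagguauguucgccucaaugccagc
Mir194-1 lies 191 bases from Mir215, within the span of Iars2, a mitochondrial isoleucyl-tRNA synthetase gene on the opposite strand. Mature miR-193a-3p lies at chr10:65170370-65170391 on the plus strand, within the span of Faul2, and its hairpin is 13814 bases from that of Mir365b. Mature miR-378a-3p lies at chr18:57128925-57128945 on the minus strand, the strand of its host Ppargc1b.

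Depth on these arrays is signal over background. Each array detected 108 to 131 of the 350 miRNAs. Signal is in arbitrary units: each array was scaled to the 75th percentile of its 185 probes that every array detected. Levels are compared only within a miRNA, since different probes bind with different strength. EtOH before PHx replicate 3 stood apart in spot noise: its median coefficient of variation among the spots of a probe was 36.6%, against 6.75% to 8.62% on the other 14 arrays. Values without it are given beside some of the results it touches. miR-122, the defining hepatocyte miRNA, was detected on all 15 arrays, and markers of biliary, stellate, leukocyte, erythroid and endothelial cells were detected too. The samples were whole liver, in which fewer cells of a type and less miRNA per cell cannot be told apart.

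miR-192 varied little between arrays. EtOH livers before PHx had scaled signals of 1778, 1645 and 1491, and CHO livers before PHx had 1569, 1532, 1712 and 1698. After PHx, EtOH livers had 1709, 1544, 1584 and 1602 at 1, 6, 12 and 24 h, and CHO livers had 1514, 1440, 1477 and 1668. The diets overlapped before PHx, the highest array (EtOH before PHx replicate 1) and the lowest (CHO at 6 h) were 1.23-fold apart, and EtOH was the higher diet at 3 of the 4 times.

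miR-194, its neighbour, had 971.6, 842.4 and 1007 in EtOH livers before PHx and 845.2, 795.1, 780.8 and 904.4 in CHO livers before PHx. At 1, 6, 12 and 24 h it had 911, 809.5, 855.4 and 918.3 in EtOH livers, against 836.1, 742.5, 686.9 and 938.4 in CHO livers. The highest values before PHx were in EtOH pools, but the diets overlapped. The lowest value of all was in CHO liver at 12 h, and the whole range was 1.47-fold.

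miR-193 was the most variable of the 4. It had 91.3, 64.8 and 75.51 in EtOH livers before PHx and 71.75, 72.85, 74.8 and 85.19 in CHO livers before PHx. Its values at 1, 6, 12 and 24 h were 69.85, 58.9, 61.84 and 79.26 in EtOH livers, and 61.6, 53.79, 60.88 and 92.44 in CHO livers. In both diets the values at 1 to 12 h were below that at 24 h. The EtOH array at 24 h lay within the EtOH range before PHx and the CHO array at 24 h above the CHO range, and the whole range was 1.72-fold. Of the 6 arrays at 1, 6 and 12 h, 5 lay below all 7 arrays before PHx, and the EtOH array at 1 h overlapped them. By the same count, chosen after the values were seen, 1 of the 134 tested miRNAs (0.746%) had 5 or more such arrays.

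miR-378, encoded within Ppargc1b, had 504.8, 412.9 and 476.5 in EtOH livers before PHx and 429.7, 368.2, 410.2 and 461.2 in CHO livers before PHx. At 1, 6, 12 and 24 h it had 489, 485.4, 494.7 and 429.8 in EtOH livers, against 393.4, 401.1, 421.4 and 534.8 in CHO livers. EtOH was the higher diet at 1, 6 and 12 h and the lower one at 24 h, where the CHO array gave the highest value of all 15. The whole range was 1.45-fold, and no array at 1 to 12 h lay outside the range before PHx.

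**Figure D1:**
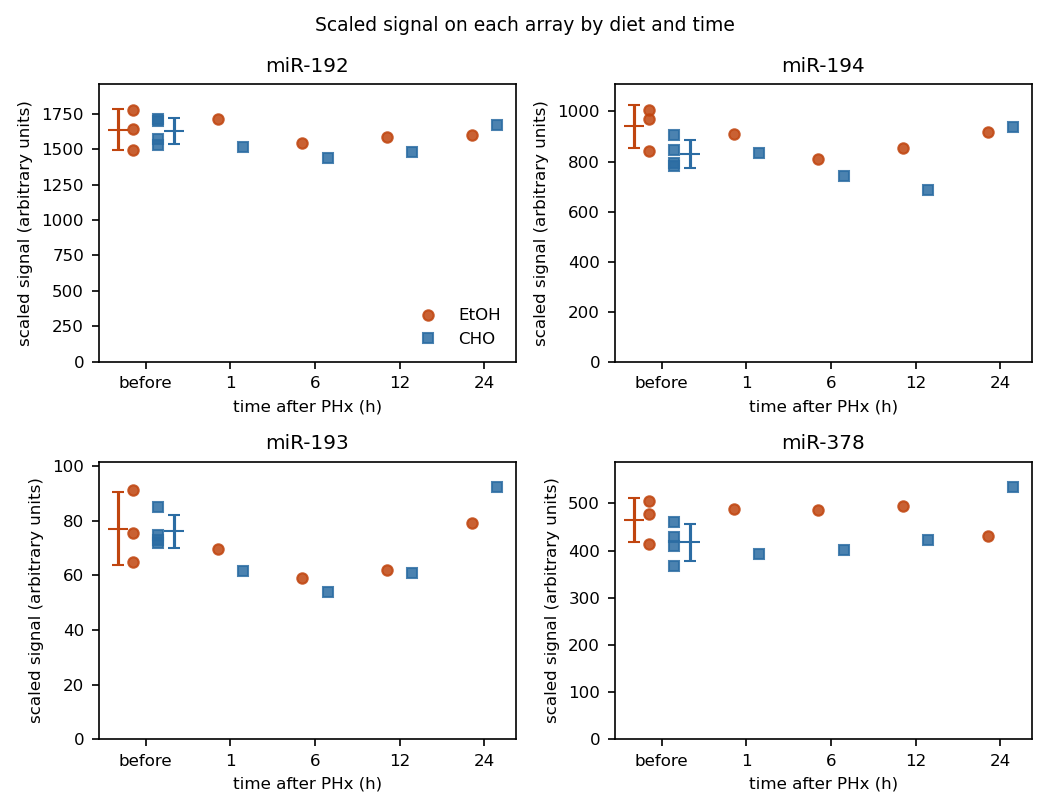
Scaled signal (arbitrary units, linear axis from 0) of each miRNA on each array against time after PHx (h), for EtOH (circles) and CHO (squares) pools. Horizontal bars with whiskers give the mean ± SD of the 3 EtOH and 4 CHO pools before PHx, and miR-193 shows its lowest value of 53.79 at 6 h and its highest of 92.44 at 24 h, both in CHO liver.

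The spread over all 15 arrays placed miR-192 among the steadiest miRNAs. Its SD on the log2 scale was 0.0904, the 7th lowest of the 134 tested, whose median SD was 0.197. The SDs of miR-194 (0.149), miR-378 (0.156) and miR-193 (0.234) ranked 40th, 45th and 89th. The rank of miR-192 depended on the processing: it was 64th when the percentile was taken over all probes, 49th with no scaling between arrays and 32nd when the probes of a miRNA were averaged. Without EtOH before PHx replicate 3 the ranks were 12th for miR-192, 42nd for miR-194, 54th for miR-378 and 97th for miR-193. Its spots on EtOH before PHx replicate 3 varied by 36.9%, and those of miR-194, miR-193 and miR-378 on that array by 8.52%, 28.8% and 44%.

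**Figure D2:**
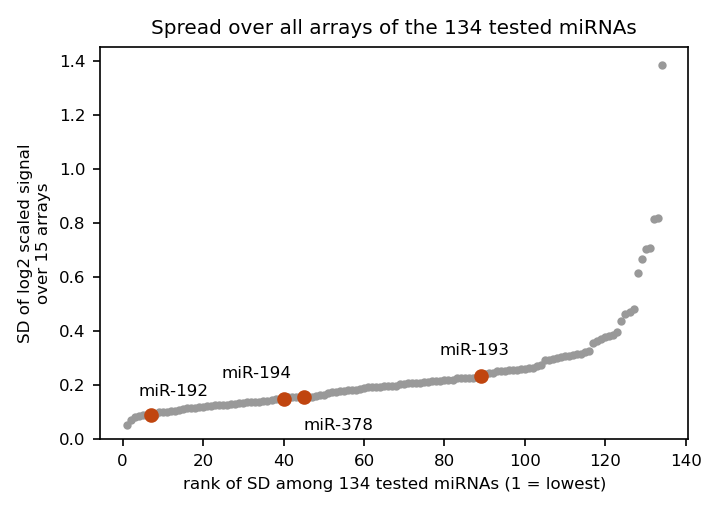
SD of log2 scaled signal over the 15 arrays (vertical axis) against its rank (horizontal axis) for the 134 tested miRNAs, with the 4 described miRNAs in orange and labelled. miR-192 has rank 7 and miR-193 rank 89.

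The first question was whether chronic ethanol changed these miRNAs in the resting liver. None of the 4 passed the limma test before PHx at an adjusted p of 0.05, where 21 of 134 miRNAs (15.7%) did. Differences are log2 of EtOH over CHO, given with their standard error (SE) and 95% interval from limma with Benjamini-Hochberg adjustment over the 134 miRNAs. miR-192 averaged 1638 ± 144 in EtOH livers (SD, n = 3) and 1628 ± 90.5 in CHO livers (SD, n = 4). Its difference was 0.007 (SE 0.0813, limma adjusted p = 0.992), with an interval of -0.172 to 0.185. miR-194 averaged 940.4 ± 86.8 in EtOH livers (SD, n = 3) and 831.4 ± 56 in CHO livers (SD, n = 4). Its difference of 0.176 (SE 0.0901, limma adjusted p = 0.232) had an interval of -0.022 to 0.374.

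miR-193 averaged 77.2 ± 13.3 in EtOH livers (SD, n = 3) and 76.15 ± 6.16 in CHO livers (SD, n = 4), with a difference of 0.009 and an interval of -0.251 to 0.27. miR-378 averaged 464.7 ± 47 in EtOH livers (SD, n = 3) and 417.3 ± 38.9 in CHO livers (SD, n = 4). Its difference was 0.155, with an interval of -0.116 to 0.426 (limma adjusted p = 0.45). All 4 had overlapping diets. Leaving out EtOH before PHx replicate 3 gave 0.073, 0.124, 0.018 and 0.134 for miR-192, miR-194, miR-193 and miR-378, and none passed. The arrays lay on 2 slides, which both held each diet before PHx. The difference of miR-192 was 0.141 on slide 1 and -0.194 on slide 2. For miR-194 it was 0.142 and 0.262, for miR-193 it was 0.089 and -0.08, and for miR-378 it was 0.199 and 0.132, in the same slide order. The other probe of miR-192 gave -0.133 and that of miR-193 gave -0.075, so the sign of these small differences depended on the probe.

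Markers of other cell types differed by diet before PHx. The 8 stellate and mesenchymal markers, all detected, summed to 1619 to 1824 in EtOH pools and 2092 to 2281 in CHO pools, and 3 of the 8 (miR-100, miR-125b-5p and miR-99a) passed as lower in EtOH. The biliary markers, 3 of 5 detected, summed to 39.49 to 50.22 in EtOH and 58.44 to 83.03 in CHO pools, with miR-200a and miR-200b passing as lower. The leukocyte markers, 4 of 5 detected, summed to 293.5 to 310.9 in EtOH and 320.2 to 364.5 in CHO pools, with miR-142-3p passing as lower. The 2 endothelial markers summed to 1064 to 1133 in EtOH and 1210 to 1300 in CHO pools, and neither passed. These sums did not overlap between the diets, while those of the erythroid and hepatocyte markers did. Over all 134 tested miRNAs 17 passed as lower in EtOH and 4 as higher, and 21.6% had all EtOH pools below all CHO pools. The excess of lower calls depended on the processing. After quantile normalization 5 passed as lower and 4 as higher, and with the percentile over all probes 1 and 1. With normexp the counts were 3 lower and 5 higher, and in the authors' deposited values 7 and 7. Lower calls prevailed under the other settings, such as no scaling (76 and 0) or EtOH before PHx replicate 3 left out (26 and 8). The marker sums are given for the main processing and all pools only. The part of the other cell types in the values of the 4 miRNAs was not tested.

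The diets were compared again over the 4 times after PHx. None of the 4 miRNAs passed, where 10 of 134 (7.46%) did. Averaged over the 4 times, miR-192 had 1610 ± 70.4 in EtOH livers and 1525 ± 100 in CHO livers, and miR-194 had 873.5 ± 51.1 in EtOH livers and 801 ± 110 in CHO livers, where the SD spans the times. The fitted differences were 0.079 for miR-192 (interval -0.086 to 0.245), 0.133 for miR-194 (-0.05 to 0.317), 0.028 for miR-193 (-0.213 to 0.269) and 0.126 for miR-378 (-0.125 to 0.377), with limma adjusted p of 0.525, 0.313, 0.857 and 0.503 in that order. On slide 1, which held 1 h and 6 h, miR-378 differed by 0.295, and on slide 2, which held 12 h and 24 h, by -0.042. Neither passed.

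Single times after PHx had 1 pool per diet, whose spread was assumed to equal that of the pools before PHx. The miR-378 difference was 0.314 at 1 h, 0.275 at 6 h, 0.231 at 12 h and -0.316 at 24 h, each with an SE of 0.19. None of the 4 miRNAs passed at 1, 6, 12 or 24 h, where 0.746%, 0%, 3.73% and 0% of the tested miRNAs did in limma. At 6 h and 24 h, 18 and 7 miRNAs of all tested had an unadjusted p under 0.05. The change in the diet difference after PHx relative to before was also tested. It was 0.073 for miR-192, -0.043 for miR-194, 0.019 for miR-193 and -0.029 for miR-378, and limma called none of these and 0 of 134 miRNAs (0%), with 9 at an unadjusted p under 0.05. With EtOH before PHx replicate 3 left out it was 0.007, 0.009, 0.01 and -0.008 in that order.

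The second question was whether the miRNAs moved during regeneration. None of the 4 passed at any single time against before PHx, averaged over both diets. At 1 h limma called 0 of 134 miRNAs (0%), with 4 at an unadjusted p under 0.05. At 6 h it called 6 (4.48%), at 12 h 8 (5.97%) and at 24 h 18 (13.4%), and for the mean over the 4 times 9 (6.72%). miR-192 differed by -0.019, -0.128, -0.092 and 0.004 at 1, 6, 12 and 24 h. The corresponding values of miR-194 were -0.016, -0.186, -0.203 and 0.073. Both had their lowest fitted values at 6 h and 12 h, and their intervals at these times held 0. Without EtOH before PHx replicate 3 the values were -0.052, -0.161, -0.125 and -0.029 for miR-192 and 0.01, -0.161, -0.177 and 0.099 for miR-194, and none passed. With all arrays kept, the other miR-192 probe gave 0.018, -0.074, 0.017 and 0.127 at 1, 6, 12 and 24 h. The lower value of miR-192 at 12 h therefore depended on the probe. The other miR-194 probe gave 0.029, -0.156, -0.162 and 0.11, in the same directions at 6, 12 and 24 h. miR-378 differed by -0.001, 0.008, 0.057 and 0.127, and its interval at 24 h was -0.158 to 0.413.

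miR-193 had the largest differences of the 4. They were -0.216 at 1 h, -0.437 at 6 h, -0.313 at 12 h and 0.168 at 24 h, each with an SE of 0.125. At 6 h the interval of -0.711 to -0.163 lay below 0, with an unadjusted p of 0.00482 in limma and an adjusted p of 0.0718, so the 6 h value missed the threshold. Without EtOH before PHx replicate 2, whose pool is that of the EtOH array at 6 h, it was -0.497 (limma adjusted p = 0.0301). After quantile normalization it was -0.631 with an adjusted p of 0.0193. With the noisy EtOH array left out it was -0.442 (adjusted p = 0.075). With the pool of animals as a block it was -0.288 (limma adjusted p = 0.455). Over all settings tried, the 6 h value ran from -0.67 to -0.229 and its adjusted p from 0.0193 to 0.999. Within slide 1, which held both diets before PHx and at 6 h, it was -0.406. The other miR-193 probe gave -0.387 at 6 h and 0.294 at 24 h, in the same directions. Averaged over the 4 times, miR-193 differed by -0.2 with a limma adjusted p of 0.179.

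Each diet's own change after PHx was fitted with its single pool per time, and none of the 4 miRNAs passed in either diet. At 12 h in CHO livers 1 of the 4 passed under each of 2 other settings. These were miR-193 at -0.807 after quantile normalization (limma adjusted p = 0.0151), and miR-192 at -0.18 in the authors' deposited table (adjusted p = 0.0345). How many of all tested miRNAs passed there is not given here. In EtOH livers limma called 0%, 1.49%, 5.97% and 7.46% of the tested miRNAs at 1, 6, 12 and 24 h, and 3 miRNAs had an unadjusted p under 0.05 at 1 h. In CHO livers it called 0.746%, 0.746%, 6.72% and 5.22% at the same times. miR-193 at 6 h differed from before PHx by -0.376 in EtOH livers (SE 0.191, limma adjusted p = 0.564) and by -0.498 in CHO livers (SE 0.185, adjusted p = 0.338). At 24 h it differed by 0.052 in EtOH and 0.283 in CHO livers, so the CHO array lay farther above its group before PHx. miR-378 at 24 h differed by -0.108 in EtOH livers and by 0.363 in CHO livers (SE 0.15, limma adjusted p = 0.231). miR-194 at 12 h differed by -0.132 in EtOH livers and by -0.273 in CHO livers, and miR-192 by -0.045 in EtOH and -0.139 in CHO livers. With EtOH before PHx replicate 3 left out, the EtOH values at 12 h were -0.081 for miR-194 and -0.111 for miR-192, the latter nearer to its CHO value. Those of miR-193 were then -0.385 at 6 h and 0.043 at 24 h, and that of miR-378 at 24 h was -0.087.

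**Figure D3:**
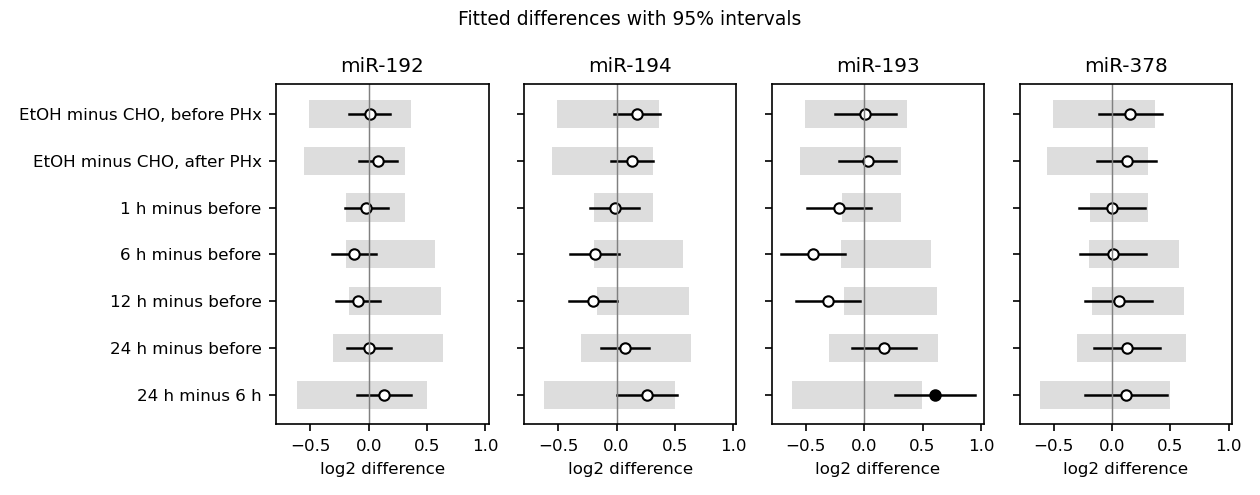
Fitted log2 differences (horizontal axis) of the 4 miRNAs for the 2 diet comparisons and for times after PHx, with 95% intervals. Grey bars span the 5th to 95th percentile of the 134 tested miRNAs, and filled points passed an adjusted p of 0.05, which only miR-193 at 24 h minus 6 h did.

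The times after PHx were also compared with each other in 6 pairs, a comparison added after the values had been seen. miR-193 rose at 24 h relative to 6 h, with values of 79.26 in EtOH and 92.44 in CHO livers at 24 h, against 58.9 in EtOH and 53.79 in CHO livers at 6 h. The log2 difference was 0.605 (SE 0.155, interval 0.264 to 0.946, limma adjusted p = 0.0271). In that pair 16 of 134 miRNAs (11.9%) passed, 9 of them higher at 24 h. miR-194 differed by 0.26 between 24 h and 6 h, miR-192 by 0.132 and miR-378 by 0.12, and these did not pass. None of the 4 passed in the other 5 pairs, where 6 h against 1 h, 12 h against 6 h and 24 h against 12 h gave 0% called in limma, with 12, 9 and 19 miRNAs at an unadjusted p under 0.05. For 12 h against 1 h 2.99% were called, and for 24 h against 1 h 6.72%.

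The rise of miR-193 rested on 4 arrays, and leaving out any of them ended the call. It was 0.673 without EtOH at 6 h (limma adjusted p = 0.148), 0.536 without CHO at 6 h (0.186), 0.772 without EtOH at 24 h (0.0503) and 0.438 without CHO at 24 h (0.235). The arrays at 6 h and 24 h lay on different slides. With slide as a block, which the arrays before PHx allow, the difference was 0.53 (adjusted p = 0.154), and with the pool of animals as a block it was 0.429 (adjusted p = 0.846). The difference was above 0 in each of these fits. Of the 5 leukocyte markers on the array 4 were detected, all but miR-142-5p, and their sums were 329.3 to 363.7 in EtOH and 314.6 to 441.3 in CHO livers after PHx, against 293.5 to 310.9 in EtOH and 320.2 to 364.5 in CHO livers before. Against before PHx miR-223, made by myeloid cells, passed as higher at 6, 12 and 24 h, while the 4 tested leukocyte markers had a median of 0.18, -0.039 and -0.033 on the log2 scale. For 24 h against 6 h their median was -0.239, and miR-146a passed as lower. The part of such cells in the miR-193 values was not tested.

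**Figure D4:**
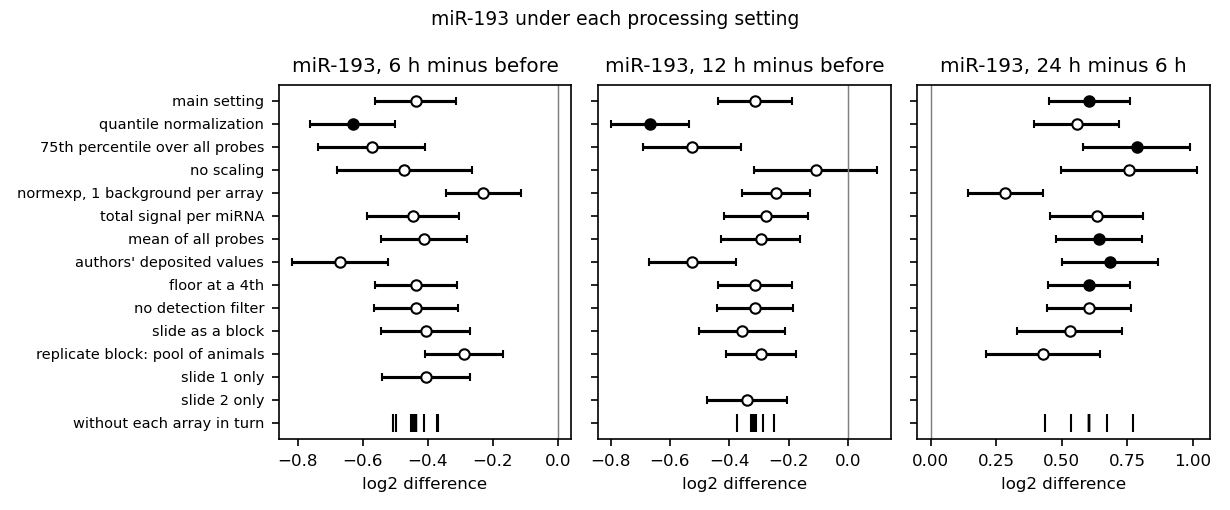
Log2 difference of miR-193 (horizontal axis, bars ± SE) at 6 h and at 12 h against before PHx, and at 24 h against 6 h, under each processing setting. Filled points passed an adjusted p of 0.05, ticks in the bottom row are fits that leave out 1 array each, and the 24 h minus 6 h values run from 0.284 to 0.786 over the settings.

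Because 7 pools have both arrays from the same animals, each change can be read within a pool. In these the log2 difference after minus before PHx for miR-193 was -0.386, -0.138 and -0.288 in EtOH pools at 1, 6 and 12 h. In CHO pools it was -0.22, -0.438, -0.297 and 0.118 at 1, 6, 12 and 24 h. All 6 pools at 1 to 12 h were lower after PHx, which held for 5 of the 134 tested miRNAs (3.73%), and the 24 h pool was higher. miR-194 was also lower in all 6 of these pools, by smaller amounts: -0.093, -0.057 and -0.236 in EtOH and -0.016, -0.099 and -0.185 in CHO pools at 1, 6 and 12 h, and 0.053 in the CHO pool at 24 h.

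miR-192 was lower in 6 of 7 pools, with changes of -0.213 to 0.087. The exception was the EtOH pool at 12 h, whose array before PHx is the noisy replicate 3. Leaving out that pool, a choice made after the values were seen, left miR-192 lower in 6 of 6 pools. miR-193 and miR-194 were then lower in 5 of 5 at 1 to 12 h. How many of all tested miRNAs did so in these smaller sets was not counted. With that pool kept, at least 6 of 7 pools were lower for 8.21% of the tested miRNAs. miR-378 was lower in both pools at 1 h and higher in the other 5, by at most 0.233, in the EtOH pool at 6 h. The 1 h and 6 h pools of each diet share an animal, so these counts are not of independent pools. They rest on the brightest probe of each miRNA, and the other probe was not counted within pools.

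**Figure D5:**
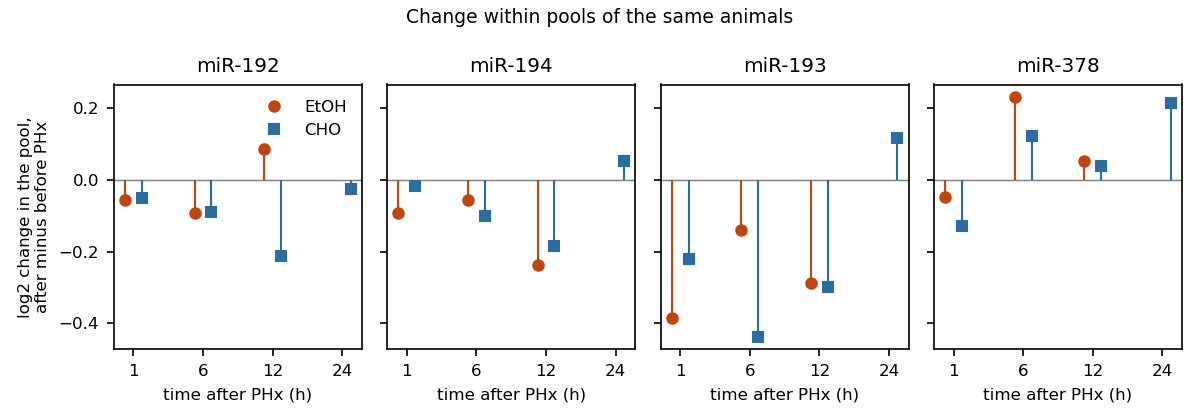
Log2 change within each pool of the same animals, after minus before PHx (vertical axis), against time after PHx (h), for 3 EtOH (circles) and 4 CHO (squares) pools. For miR-193 all 6 pools at 1 to 12 h lie below 0 and the CHO pool at 24 h is at 0.118.

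The miR-192 and miR-194 signals were set against each other within arrays, as a change in their ratio and not as a ratio of molecules. The log2 difference miR-192 minus miR-194 averaged 0.801 ± 0.209 in EtOH livers before PHx (SD, n = 3) and 0.97 ± 0.111 in CHO livers before PHx (SD, n = 4). It was lowest at 0.565 on EtOH before PHx replicate 3, and highest at 1.133 on CHO before PHx replicate 3. The groups overlapped, since the other EtOH values were 0.872 and 0.965. Over the 15 arrays the Pearson correlation of miR-192 with miR-194 was 0.503, against 0.702 with miR-193, which comes from another chromosome. Without EtOH before PHx replicate 3 these were 0.745 and 0.774, so the correlation of the neighbours was still the lower one, by a smaller gap. The difference miR-193 minus miR-365, the neighbour on chromosome 10, ran from -2.964 to -1.436, and the Pearson correlation of these was -0.023. The upper end was EtOH before PHx replicate 3, where the spots of miR-365 varied by 84.1%, and without it the highest value was -1.735 and the correlation 0.06.

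The miRNAs whose pattern over the 15 arrays was most like each member were taken by Pearson correlation of log2 scaled signal. These are descriptions, as the arrays share groups, pools and scaling. For miR-192 they were miR-193 (0.702), miR-203 (0.607) and miR-365 (0.594), and the least alike was miR-500 (-0.747). For miR-194 they were miR-30a (0.742), miR-203 (0.709) and miR-193 (0.701), and the least alike was miR-466b (-0.763). miR-193 was most like miR-30e (0.817), then miR-192 (0.702) and miR-194 (0.701), and least like miR-652 (-0.873). miR-378 was most like miR-203 (0.669), miR-194 (0.624) and miR-425 (0.624), and least like miR-150 (-0.692). Without EtOH before PHx replicate 3 the most alike miRNA of each was the same, while miR-365 moved to rank 7 for miR-192, miR-203 to rank 5 for miR-194 and miR-194 to rank 4 for miR-378. miR-500 for miR-192 and miR-466b for miR-194 were then no longer the least alike. The neighbour miR-194 then correlated with miR-192 at 0.745, close to miR-203 at rank 2 (0.749).

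The opposite strands of 2 hairpins were on the array and dim. They are shown because miR-378* has been described in breast cancer cells as a regulator of mitochondrial metabolism.
miR-378a-5p: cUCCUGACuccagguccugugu
miR-193a-5p: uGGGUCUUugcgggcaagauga
miR-378* had scaled signals of 14.77 to 28.19 and was detected on all 15 arrays. miR-193* had 11.66 to 19.64 and was detected on 13. Neither passed for diet, for any time against before PHx or between times. The diet difference of miR-378* before PHx was 0.337, with an interval of -0.011 to 0.686 (limma adjusted p = 0.198). miR-192*, miR-194* and miR-378b were not among the array's named miRNAs.

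The neighbour list held hepatocyte miRNAs and partners of the 4 by seed or transcript, and 6 of its 8 entries were tested: miR-122, miR-148b-3p, miR-22, miR-101a, miR-101b and miR-365. None of the 6 passed for diet, for any time against before PHx or between times. miR-365 had the largest diet difference among them after PHx, 0.483 with an interval of 0.015 to 0.952 (limma adjusted p = 0.152).

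The metabolism list held miRNAs known from lipid, glucose or fibrosis studies, and 11 of its 14 entries were tested. None passed for diet before PHx, where the list's median log2 difference was -0.057 against -0.075 over all tested miRNAs. After PHx 2 of 11 passed as higher with EtOH and none as lower, where 10 of all 134 (7.46%) passed, 4 of them higher. These were miR-107, known as a regulator of insulin sensitivity in mice, by 0.405 (SE 0.098, limma adjusted p = 0.0318), and miR-34a, a p53 target, by 0.954 (SE 0.248, adjusted p = 0.0416). The list's median there was -0.052 against -0.051. Both calls ended when any EtOH or CHO array of 1, 6 or 12 h was left out, or CHO replicate 1 or 2 of the pools before PHx, and that of miR-34a also without CHO replicate 3 of these. Over all settings the differences ran from 0.31 to 0.655 for miR-107 and from 0.404 to 1.294 for miR-34a. Neither passed with no scaling (limma adjusted p of 0.409 for miR-107 and 0.101 for miR-34a), with normexp (0.0558 for each) or with no detection filter (0.142 and 0.177). The miR-34a call also ended after quantile normalization (0.0684), in the authors' deposited values (0.054) and with slide as a block (0.0509). With the sets of pair-fed pools as a block the adjusted p was 0.0554 for miR-107 and 0.0589 for miR-34a. At 24 h against before PHx 2 of 11 rose, where 18 of all 134 (13.4%) passed, 16 of them higher. These were miR-34a by 1.202 (SE 0.282, adjusted p = 0.0144) and miR-29b, which targets collagen transcripts, by 0.457 (SE 0.0992, adjusted p = 0.00886). Without CHO at 24 h miR-34a was at 0.804 (adjusted p = 0.342), and without EtOH at 24 h miR-29b was at 0.341 (0.21). With the pool of animals as a block miR-34a was at 1.588 (adjusted p = 0.144) and miR-29b at 0.241 (0.791). The miR-34a call at 24 h also ended after quantile normalization (limma adjusted p = 0.0615), in the authors' deposited values (0.0631) and with no detection filter (0.121). That of miR-29b ended after quantile normalization (0.139), with the percentile over all probes (0.0602) and with no scaling (0.187). It also ended with normexp (0.289), total signal per miRNA (0.0726) and the authors' values (0.101). miR-29b was also higher at 24 h than at 6 h, by 0.495 (limma adjusted p = 0.0242). That call ended without any of the 4 arrays it rests on, with values of 0.379 to 0.611, and under the pool block (0.228, adjusted p = 0.986). Between 24 h and 6 h miR-29b also did not pass after quantile normalization (limma adjusted p = 0.108), with no scaling (0.321), normexp (0.46) or total signal per miRNA (0.078). The same held in the authors' deposited values (0.0768), with no detection filter (0.0916) and with slide as a block (0.123). None of the 11 passed at 1, 6 or 12 h against before PHx.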

How the data were processed

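Rat liver miRNA was measured on 15 Agilent single-colour arrays. The deposited scanner files hold, per the file headers, spot intensity with the local background subtracted by Agilent Feature Extraction, whose version is 10.5.1.1 in the headers. The submitters' processing notes name 10.7.3.1. The files also hold other values, namely quality marks of 0 or 1 per spot, per the file headers. A second table, deposited by the authors, gives each miRNA on a log2 scale whose centring and method are unstated. It served as an alternative.

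Of 7000 non-control spots per array, those marked as outliers were left out (2.384%). Probe means were scaled to the 75th percentile over 185 probes detected on all arrays, floored at 9.611 and logged. Each miRNA was read from its brightest probe, and miRNAs detected on at least 3 arrays were tested (134 of 350). limma 3.58.1 in R 4.3.3 fitted diet before PHx, diet after PHx and 4 times on all 15 arrays (8 residual degrees of freedom), with Benjamini-Hochberg adjustment within each contrast. A fit with 10 cells of diet and time (5 residual degrees of freedom) gave single times. The script was tested on simulated data. P-values of the main fit measure the spread between pools before PHx together with changes in the diet difference between times after it. Those of the fit with 10 cells measure the spread between pools before PHx only. Both fits took arrays of the same pool as independent.

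The labels list the same animals before and after PHx in 7 pools, whose deviations from the group means correlated at 0.157 to 0.485, so a fit with the pool as a block was an alternative. Other alternatives were the normalization, the background correction, the filter, the floor, the probe rule, the slide and leaving out each array. The spread and the correlations were recomputed without EtOH before PHx replicate 3, a choice made after the data were seen. The mean spot signal is not among the columns used here, so the median spot signal stood in for it. The members, lists and rules for named miRNAs (the 4 members, their other strands and near copies, a neighbour and a metabolism list, and the 3 most and 1 least alike) were chosen with earlier results of these data known. Probe sequences were not used here, so which strand a name stands for rests on the names.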

Additional observations from a re-analysis of the deposited data

How the results depend on the processing

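Of 2592 recomputed values of the 4 miRNAs, 2380 kept their sign and 25 passed the threshold. Part of these values could not change, so the count does not measure how firm the results are. A diet difference at a single time stays the same when an array of another group is left out, as for miR-192 at 1 h (0.174). The lower floor and the missing detection filter also left miR-193 at 6 h at -0.437. With no scaling between arrays, diet before PHx turned to -0.525 for miR-192 (limma adjusted p = 0.0404) and -0.522 for miR-193 (0.0343). Thus 2 of the 4 passed, where 76 of all 134 did, all lower in EtOH. The median difference over the tested miRNAs was then -0.529, close to the values of these 2. Without scaling, arrays whose 75th percentiles ran from 236.5 to 515.5 are compared directly. After quantile normalization 1 of the 4 passed, miR-193, at 6 h (-0.631) and at 12 h (-0.666, limma adjusted p = 0.0131). It also passed for the mean of times (-0.387, 0.0175) and in CHO livers alone at 12 h (-0.807, 0.0151). Of all 134 under this setting, 6 passed at 6 h, 8 at 12 h and 14 for the mean of times. In the authors' deposited values 1 of the 4 passed for the mean of times, miR-193 at -0.357 (0.0437). For 24 h against 6 h 2 of the 4 passed there, miR-193 and miR-192 (0.229, 0.039). miR-192 also passed there in CHO livers at 12 h (-0.18, 0.0345). Counts over all tested miRNAs are not given here for these comparisons in the authors' values, nor for CHO livers alone after quantile normalization. For 24 h against 6 h, 0 of the 4 passed under quantile normalization (miR-193 at 0.557, adjusted p = 0.0544), no scaling (0.756, 0.228), normexp (0.284, 0.484), total signal per miRNA (0.634, 0.0571), no detection filter (0.605, 0.138) and slide as a block (0.53, 0.154). Of all 134 in that pair, quantile normalization called 11, total signal per miRNA 5, no scaling 1 and normexp 0. Under the last 2 settings the loss of the miR-193 call was thus not particular to miR-193. The replicate block by pool also left 0 of the 4, with miR-193 at 0.429. Neither this block nor one by sets of pair-fed pools changed another call of the 4. Leaving out 1 array gave 0 to 1 of the 4 past the threshold both at 6 h and for 24 h against 6 h. The causes were not tested. Normexp with local background was not run, since its fit failed on 2 arrays. Groups after PHx hold 1 pool per diet, and the number of arrays limits the precision.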
